A study of Mus musculus with 2 samples.

Results

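The potassium channel genes of the mouse were followed across the cell classes of single-nucleus RNA libraries made from hippocampal tissue. They were chosen by symbol, as all Kcn genes other than antisense or overlapping transcripts (5 of which were left out) and gene models, with at least 50 unique molecular identifiers (UMIs, 1 per captured RNA molecule) summed over the series. Of 94 such symbols, 78 reached the minimum, among the 55357 genes of the tables and the 21240 genes with the same minimum. No measured difference entered the choice. Kcne4 and Kcna5, each with 57 UMIs, lay just inside the minimum, and Kcnj14 (37 UMIs) and Kcnn4 (32 UMIs) just outside. The 78 members held 6 Kv1, 2 Kv2, 4 Kv3, 3 Kv4 and 5 Kv7 genes, and 8 genes of the EAG, ERG and ELK group. A further 9 encode modulatory subunits that are silent alone, 4 belong to the BK and Slo3 group, 3 are SK genes, 2 are sodium-activated, 12 are inward rectifiers, 10 have 2 pore domains, 9 encode auxiliary subunits, and Kcnrg encodes a regulator.

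The series has 2 libraries of nuclei from hippocampal tissue, 1 for each group. They come from mice whose Bcas2 gene, which encodes a splicing factor, is flanked by loxP sites (Bcas2F/F). The mice of the Syn-Cre library had received the virus AAV2/9-Syn-cre, in which the synapsin promoter drives Cre recombinase in neurons, and its genotype label reads Bcas2 knockdown. The mice of the vehicle library had received AAV-vehicle, and its genotype label reads WT although its title names floxed mice. The sources used here do not give age, sex, the time after injection or the number of mice pooled. With 1 library per group there is no replicate: no test was made, and all 95% intervals cover counting error only.

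Potassium channels let potassium leave or enter the cell and thereby set the resting potential, end the action potential and control firing rate. Voltage-gated Kv channels open on depolarisation, calcium- and sodium-activated channels respond to ions inside the cell, inward rectifiers pass current near rest, and 2-pore channels carry leak current. In the hippocampus, neurons are known for fast Kv3 channels in interneurons and A-type Kv4 channels in the dendrites of principal cells, while astrocytes are known for clearing potassium through Kir4.1.

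The Syn-Cre library held 16693 barcodes and 90594923 UMIs, and the vehicle library 12621 barcodes and 41781481 UMIs; 56 barcodes occurred in both. After filters, 12359 and 11196 nuclei were left, with medians of 5796 and 2485 UMIs. The libraries stood apart in what they held: oligodendrocyte-like nuclei were 17.0% of the Syn-Cre and 63.3% of the vehicle library, and only dentate gyrus (DG) granule-like (2026 and 547 nuclei) and Cajal-Retzius-like (177 and 186) neurons reached 100 nuclei in both. Clusters without a name held 15.8% and 1.31% of nuclei. Striatal-type medium spiny-like nuclei numbered 232 in the Syn-Cre and 15 in the vehicle library, and deep-layer excitatory-like nuclei 557 and 24. Whether these came from tissue next to the hippocampus was not tested. Bcas2 in granule-like nuclei was 33.6 CPM (30.6 to 36.9; CPM are UMIs of a gene per 1000000 UMIs of the class) in the Syn-Cre and 34.0 CPM (28.7 to 40.1) in the vehicle library. In Cajal-Retzius-like nuclei it was 62.0 CPM (46.3 to 81.3) in the Syn-Cre and 25.7 CPM (15.2 to 40.6) in the vehicle library, the opposite of the direction that the knockdown label names. In oligodendrocyte-like nuclei it was 50.5 and 32.2 CPM. The sources used here do not give the deleted part of the gene, so that these 3' tags check neither label, and each direction below rests on the labels. The RNA of neurons was also found in glia, and more so in the Syn-Cre library: the summed level of Syt1, Snap25, Rbfox3 and Meg3 was 2784.5 to 3956.7 CPM over 5 non-neuronal classes there, against 220.2 to 785.1 CPM in the vehicle library, and none of the 4 genes was at 0.

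Members together made up a larger part of the RNA in CA1 pyramidal-like and granule-like neurons than in glia. Their summed level in the Syn-Cre library was 16840 CPM in CA1 pyramidal-like and 15710 CPM in granule-like nuclei. It was 9229 CPM in Lhx6 interneuron-like nuclei, 7604 CPM in the OPC-like class (oligodendrocyte precursors), 4070 CPM in astrocyte-like and 2885 CPM in microglia-like nuclei. In the vehicle library the same sum was 16580 CPM in granule-like, 7565 CPM in OPC-like, 3217 CPM in astrocyte-like and 1559 CPM in microglia-like nuclei. UMIs were not corrected for gene length, so levels are compared here between classes for 1 gene or group, not between genes. In both libraries the auxiliary subunits gave about the same share of the members' UMIs in granule-like nuclei, 49.2% and 49.0%. Kv3 genes gave 21.6% in Lhx6 interneuron-like against 2.69% in granule-like nuclei of the Syn-Cre library. Of 64 members with at least 50 UMIs in both libraries, 47 had the same highest class among the 8 classes with levels in both. Statements of the highest class, or of any class, cover only named classes with at least 50 nuclei in the library. Clusters without a name held more in the Syn-Cre library for Kcnh7 (1787 CPM), Kcnd2 (3056 CPM), Kcnb2 (1202 CPM), Kcnj9 (83.0 CPM), Kcnj4 (57.2 CPM), Kcnmb4 (181 CPM) and Kcnh1 (302 CPM), and in the vehicle library for Kcnk2 (420 CPM) and Kcnma1 (1434 CPM). Kcnb2, Kcnh7, Kcnip1, Kcnj13 and Kcnrg each overlap another protein-coding gene in the RefSeq annotation (Gm51415, Gca, Kcnmb1, Gigyf2 and Trim13), so that their UMIs are uncertain where the counting could not separate the genes.

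**Figure D1:**
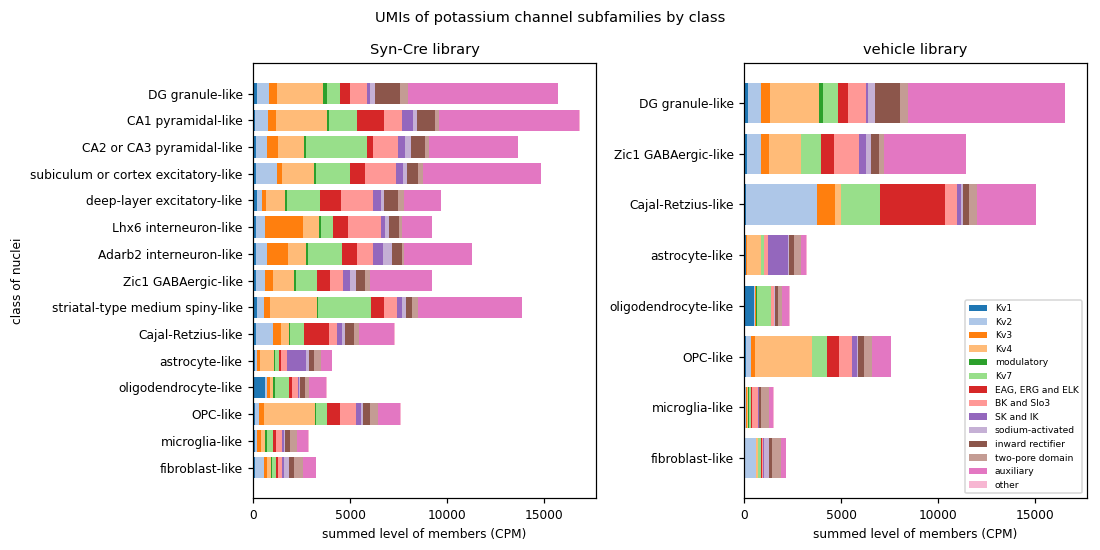
Summed level of the members of each subfamily in CPM (x axis) in each class of nuclei (y axis), for the Syn-Cre library on the left and the vehicle library on the right. The longest bars are those of CA1 pyramidal-like (16840 CPM) and granule-like nuclei in the Syn-Cre library. In the vehicle library they are those of granule-like and Cajal-Retzius-like (15070 CPM) nuclei. Granule-like nuclei have nearly the same bar in both libraries (15710 and 16580 CPM).

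Of the Kv1 genes, which encode channels of axons and their terminals, Kcna1 and Kcna6 were highest in the myelinating class. The level of Kcna1 (Kv1.1) in oligodendrocyte-like nuclei was 489 CPM in the Syn-Cre and 419 CPM in the vehicle library, against 81.7 and 92.8 CPM in granule-like nuclei. That was 5.99-fold (5.57 to 6.45) and 4.51-fold (4.08 to 5.01) more, so the order of these classes was the same in both libraries and their intervals did not overlap. Kcna6 (Kv1.6) was at 64.0 and 96.0 CPM in oligodendrocyte-like nuclei. Kcna1 and Kcna6 are neighbours in the RefSeq GRCm38.p6 annotation, with Kcna5 on the other side of Kcna1. Kcna5 gave at most 5.88 CPM in any class of either library. Kcna4, an A-type channel, was instead highest in neurons of the Syn-Cre library, with 74.2 CPM in striatal-type medium spiny-like and 67.2 CPM in granule-like nuclei.

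The Kv2 genes encode delayed rectifiers of the cell body. Kcnb2 (Kv2.2) separated excitatory classes of the Syn-Cre library, with 926 CPM in subiculum or cortex excitatory-like and 131 CPM in deep-layer excitatory-like nuclei, a 7.10-fold difference (6.52 to 7.73). Its level was highest of all in Cajal-Retzius-like nuclei of the vehicle library, at 3623 CPM. It was also found in fibroblast-like nuclei, at 415 CPM (350 to 489) and 486 CPM (440 to 537).

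Kv3 channels repolarise fast and allow high firing rates. Kcnc2 (Kv3.2) in the Syn-Cre library was at 1602 CPM in Lhx6 interneuron-like, 842 CPM in Adarb2 interneuron-like and 20.8 CPM in granule-like nuclei. The Lhx6 level was 1.90-fold (1.81 to 2.00) that of the other interneurons and 77.1-fold (68.4 to 87.2) that of granule-like nuclei. After every nucleus was thinned to 1000 UMIs, a Kcnc2 UMI was found in 70.1% of Lhx6 interneuron-like and 1.97% of granule-like nuclei; without thinning the shares were 95.8% and 11.5%. Kcnc1 (Kv3.1) had the same highest class, at 297 CPM, 3.52-fold (3.26 to 3.81) its granule-like level. The interneuron pattern extended to 3 subunit genes of other groups. Kcns3, a modulatory subunit, was at 51.7 CPM in Lhx6 interneuron-like nuclei, and Kcnab3, a beta subunit of Kv1 channels, at 30.8 CPM. Kcnmb2, a beta subunit of BK channels, was at 863 CPM there, 54.7-fold (47.6 to 63.1) its granule-like level. The vehicle library held 15 Lhx6 interneuron-like nuclei, too few for a level.

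Kv4 channels carry the A-type current of dendrites, and Kcnip genes encode the KChIP proteins bound to them. Kcnd2 (Kv4.2) in the Syn-Cre library was at 2554 CPM in CA1 pyramidal-like, 2239 CPM in striatal-type medium spiny-like and 2097 CPM in granule-like nuclei, against 645 CPM in Lhx6 interneuron-like nuclei. It was as high in OPC-like nuclei, at 2299 CPM in the Syn-Cre and 2650 CPM in the vehicle library. Kcnip4 followed the principal neurons with 7123 CPM in granule-like and 6259 CPM in CA1 pyramidal-like nuclei, but gave 303 and 89.3 CPM in OPC-like nuclei. There, Kcnip1 (450 and 460 CPM) and Kcnip3 (235 and 261 CPM) were found at nearly equal levels in both libraries. Kcnip1 was also high in Adarb2 interneuron-like nuclei, at 504 CPM, 2.31-fold (2.12 to 2.51) its Lhx6 interneuron-like level.

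Kv7 channels carry the M-current that muscarinic receptors close. Kcnq5 separated the principal neurons of the hippocampus: its level in the Syn-Cre library was 2508 CPM in CA2 or CA3 pyramidal-like, 679 CPM in CA1 pyramidal-like and 71.7 CPM in granule-like nuclei. The first was 3.69-fold (3.58 to 3.81) the second and 35.0-fold (32.8 to 37.4) the third. Striatal-type medium spiny-like nuclei had 2175 CPM. Kcnq3 was found in neurons and in oligodendrocyte-like nuclei alike. In the latter its level was 634 and 707 CPM, 9.23-fold (7.62 to 11.3) and 8.86-fold (7.68 to 10.3) its astrocyte-like level, with 477 and 624 CPM in granule-like nuclei.

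In the EAG, ERG and ELK group, Kcnh7 (ERG3) marked CA1 against CA2 or CA3: it was at 1199 CPM in CA1 pyramidal-like and 89.4 CPM in CA2 or CA3 pyramidal-like nuclei of the Syn-Cre library, a 13.4-fold difference (12.2 to 14.7). Kcnh8, an ELK channel, was highest among the named classes in the precursors of oligodendrocytes. Its OPC-like level was 348 CPM (313 to 386, 359 UMIs) in the Syn-Cre and 370 CPM (347 to 393, 998 UMIs) in the vehicle library. In granule-like nuclei it was 1.94 and 1.43 CPM, and in oligodendrocyte-like nuclei 4.28 and 5.21 CPM. The next class was Zic1 GABAergic-like at 53.1 CPM in the Syn-Cre library, 6.56-fold (5.72 to 7.52) lower, and neuroblast-like at 149 CPM in the vehicle library. A cluster of 136 Syn-Cre nuclei without a name, led by genes such as Vwc2l, had Kcnh8 at 307 CPM (278 to 338). Kcnh1 (EAG1) was highest in striatal-type medium spiny-like nuclei, at 291 CPM.

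**Figure D2:**
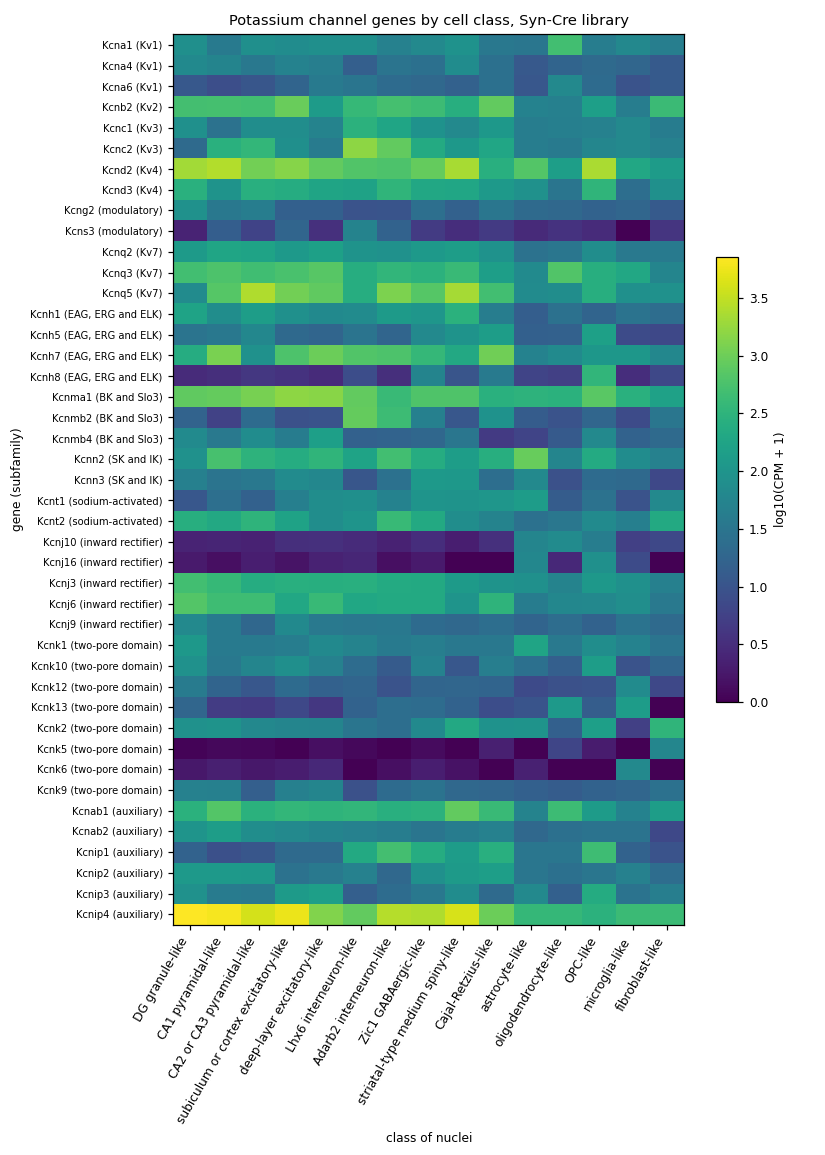
Level of 43 members that reach 50 CPM in any class shown, as log10(CPM + 1) by colour, in 15 classes of nuclei (x axis) of the Syn-Cre library, ordered by subfamily (y axis). Kcnc2 and Kcnmb2 are brightest in the interneuron-like columns, Kcnq5 in the CA2 or CA3 pyramidal-like column, and Kcnh8 in the OPC-like column.

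Among the calcium- and sodium-activated channels, Kcnma1, the BK channel opened by calcium and voltage together, was at 1560 CPM in subiculum or cortex excitatory-like and 1491 CPM in deep-layer excitatory-like nuclei, with 828 and 853 CPM in granule-like nuclei of the Syn-Cre and vehicle library. Its subunit Kcnmb4 was highest in deep-layer excitatory-like nuclei, at 148 CPM. Kcnn2 (SK2), a calcium-activated channel of small conductance best known in neurons, was highest in astrocyte-like nuclei. It was at 897 CPM (851 to 945) in the Syn-Cre and 919 CPM (881 to 958) in the vehicle library, and the intervals overlapped. This was 1.66-fold (1.56 to 1.76) the CA1 pyramidal-like level and, in the vehicle library, 10.1-fold (9.02 to 11.2) the granule-like level. Kcnn3 (SK3) was at 114 CPM in Zic1 GABAergic-like and 64.2 CPM in astrocyte-like nuclei of the Syn-Cre library. Of the sodium-activated channels, Kcnt1 was highest in astrocyte-like nuclei of the Syn-Cre library (134 CPM) and Kcnt2 in Adarb2 interneuron-like nuclei (390 CPM).

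Inward rectifiers differed in the classes that held them. The G protein-gated channel genes Kcnj3, Kcnj6 and Kcnj9 were high in granule-like nuclei, with Kcnj3 at 488 and 552 CPM, Kcnj6 at 664 and 642 CPM, and Kcnj9 at 65.1 and 61.9 CPM in the Syn-Cre and vehicle library. Kcnj10, which encodes the astrocyte channel Kir4.1, was at 1.42 and 7.85 CPM there. It was at 55.3 and 101 CPM in astrocyte-like, 70.5 and 121 CPM in oligodendrocyte-like and 42.7 and 70.0 CPM in OPC-like nuclei. Kcnj16 (Kir5.1), which joins Kir4.1 in heteromers, was at 59.1 and 65.6 CPM in astrocyte-like and 83.4 and 61.9 CPM in OPC-like nuclei, but at 1.80 and 2.38 CPM in oligodendrocyte-like nuclei. Oligodendrocyte-like nuclei thus held Kcnj10 with little Kcnj16, in both libraries. Kcnj8 (Kir6.1) was found in fibroblast-like nuclei, with 17 UMIs (49.0 CPM) and 28 UMIs (34.3 CPM), beside Abcc9, the gene of its sulfonylurea receptor partner (153 and 121 CPM). The larger of the fibroblast-like clusters also carried pericyte markers. Among the classes with a level, Kcnj13 was also highest in fibroblast-like nuclei (46.2 and 36.8 CPM, 16 and 30 UMIs), with the overlap given above. Choroid plexus epithelial-like nuclei (26 and 35) were too few for a level, so Kcnj13 was not compared with them.

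Kcnj9 and Kcnj10 are adjacent genes on chromosome 1 with contrasting class patterns, and the 250 bases before the start of each are shown for that contrast, from RefSeq GRCm38.p6 and written along the strand of the gene. Capitals mark the motifs searched on both strands: the GC box GGGCGG (reverse CCGCCC), the TATA box TATAAA (reverse TTTATA) and the Sox core ACAAAG (reverse CTTTGT). The TATA box and its reverse can share letters. The bases just after the annotated start were sought in the transcripts of another annotation, GENCODE. They were found for Kcnj10 and not for Kcnj9, so that the start of Kcnj9, and with it the window, is less certain.
Kcnj9, chr1:172329323-172329572, minus strand: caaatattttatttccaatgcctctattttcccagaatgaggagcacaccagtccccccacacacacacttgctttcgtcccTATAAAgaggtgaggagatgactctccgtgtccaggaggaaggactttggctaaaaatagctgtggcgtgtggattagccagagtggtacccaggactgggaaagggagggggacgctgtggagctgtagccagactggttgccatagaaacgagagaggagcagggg
Kcnj10, chr1:172340960-172341209, plus strand: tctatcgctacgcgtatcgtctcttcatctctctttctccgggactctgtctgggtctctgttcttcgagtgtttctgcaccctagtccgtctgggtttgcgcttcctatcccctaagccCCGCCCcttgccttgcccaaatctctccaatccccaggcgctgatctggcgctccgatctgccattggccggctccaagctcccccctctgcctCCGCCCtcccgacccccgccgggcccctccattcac
The Kcnj9 window has 1 TATA box match, no GC box match and 5 CG dinucleotides. The Kcnj10 window has 2 GC box matches, no TATA box match and 17 CG dinucleotides. A GC box match was found in 32.7% of all 32851 promoter windows of this length and in 46.8% of the 79 windows of 55 members that had one. For the TATA box the shares were 12.4% and 3.80%, and for the Sox core 16.5% and 10.1%. These matches describe the letters only.

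Among the 2-pore channels, different genes were highest in different non-neuronal classes. Kcnk13 (THIK1), the leak channel of microglia, was at 133 and 201 CPM in microglia-like nuclei and at nearly the same level in oligodendrocyte-like nuclei, 121 and 194 CPM. The ratio of these classes was 1.09-fold (0.824 to 1.42) in the Syn-Cre and 1.04-fold (0.935 to 1.14) in the vehicle library, within counting error. Kcnk6 (TWIK2) gave 30 UMIs in microglia-like nuclei of the Syn-Cre library (65.2 CPM) and 204 in the vehicle library (95.1 CPM), and at most 30.4 CPM in any other class, the perivascular macrophage-like nuclei. Kcnk12 (THIK2) was at 71.7 and 98.4 CPM in microglia-like nuclei. Kcnk1 (TWIK1) was highest in astrocyte-like nuclei, at 177 and 174 CPM. Kcnk2 (TREK1) was highest in fibroblast-like nuclei, at 326 CPM (269 to 392) and 341 CPM (302 to 383), and Kcnk10 (TREK2) in OPC-like nuclei, at 137 and 186 CPM. Kcnk5 (TASK2) was also highest in fibroblast-like nuclei, at 57.7 and 61.3 CPM.

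**Figure D3:**
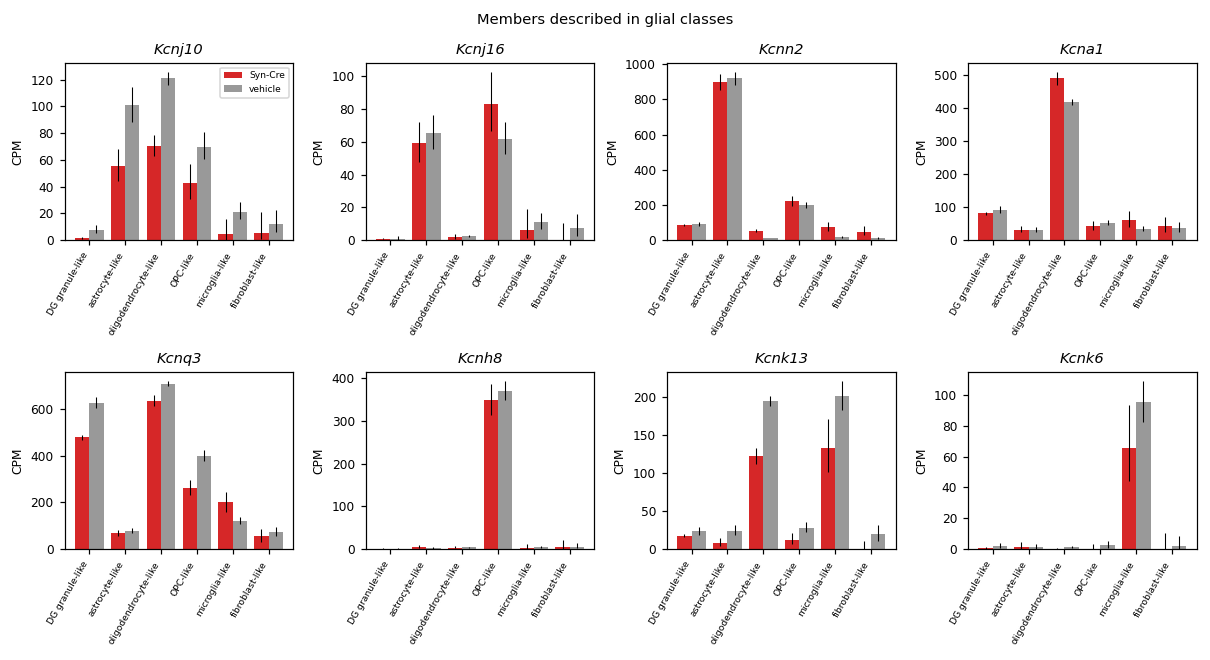
Level in CPM (y axes, each from 0) of 8 members in 6 classes of nuclei (x axes); red bars are the Syn-Cre library, grey bars the vehicle library, and error bars are exact Poisson 95% intervals for counting error. Kcnn2, Kcnh8 and Kcnk6 stand highest in 1 class in both libraries, and the Kcnj10 bars of 3 glial classes are lower in the Syn-Cre library.

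The comparison of the libraries asks how potassium channel RNA differed where Cre was driven in neurons. Granule-like nuclei were the principal neurons that both libraries held in number, and there most members were at about the same level. Of 62 members with at least 50 UMIs there, 9 were higher in the Syn-Cre library by 1.5-fold or more, 4 were lower by as much, and 49 lay within 1.5-fold. Over all 13508 genes tested, 9.21% were that much higher and 5.77% lower. With an estimate of free RNA subtracted, 2 members were higher and 12 lower, and the median log2 ratio of the members was -0.19. The shares of all genes above are without that subtraction, so these counts cannot be set against them. Without subtraction, the median log2 ratio (Syn-Cre over vehicle, with 0.5 UMI added) was 0.0093 for the members and 0.045 for all genes. Kcnip4 was at 7123 and 7531 CPM with a log2 ratio of -0.08 (-0.099 to -0.062), and Kcnd2 at 2097 and 2274 CPM with a log2 ratio of -0.12 (-0.15 to -0.083). Kcnma1 (-0.04, -0.097 to 0.012) and Kcnj6 (0.05, -0.012 to 0.11) lay within counting error. Kcnq3 was lower, at 477 against 624 CPM (-0.39, -0.45 to -0.32), which is under 1.5-fold.

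Of the members past 1.5-fold in granule-like nuclei, 6 had an interval that left out 0 and a level of at least 0.25 of that in their highest class. Kcnh4, an ELK channel, was lower at 12.5 against 24.3 CPM (167 and 102 UMIs, log2 ratio -0.96, -1.32 to -0.59). Kcnj2 (Kir2.1) was lower at 6.28 against 10.47 CPM (-0.74, -1.28 to -0.18). Kcnj4 (Kir2.3) was higher at 38.4 against 24.5 CPM (513 and 103 UMIs, 0.64, 0.34 to 0.97). Kcns1, Kcnk3 and Kcnf1 were also higher, but on 12, 14 and 12 vehicle UMIs. Of the other 7, Kcnc2 (20.8 against 8.33 CPM), Kcnmb2 (15.8 against 7.14 CPM) and Kcnq5 (71.7 against 35.7 CPM) were genes with far higher levels in other neurons of the Syn-Cre library, and Kcnj10 (1.42 against 7.85 CPM) was a gene with higher levels in glia. With doublets kept, the granule-like class shrank to 105 and 104 nuclei, and Kcnh4, Kcnj2 and Kcns1 changed direction; Kcnj2 did so also with nuclei thinned.

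**Figure D4:**
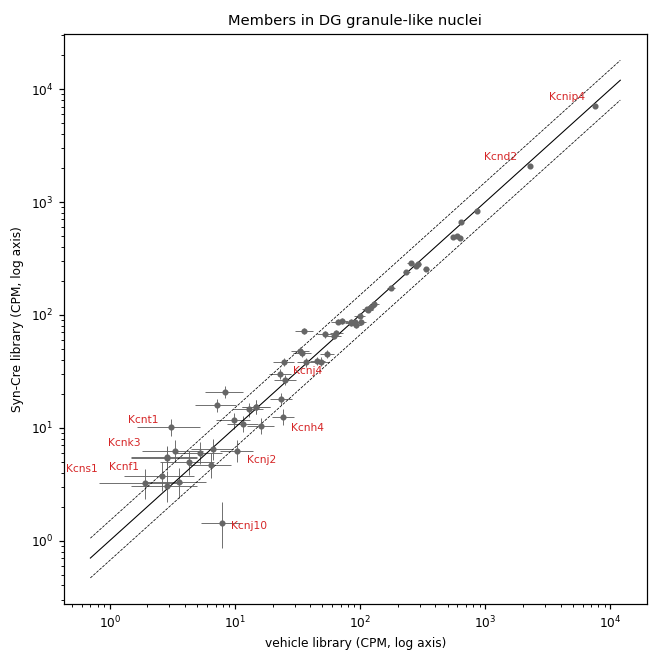
Level of each of the 62 members with at least 50 UMIs in granule-like nuclei, vehicle library on the x axis and Syn-Cre library on the y axis (CPM, log axes), with exact Poisson 95% intervals; the solid line marks equal levels and the dashed lines 1.5-fold. Kcnip4 and Kcnd2 lie close to the line of equal levels, Kcnh4 and Kcnj10 lie under the lower dashed line, and Kcnj4 over the upper one.

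In oligodendrocyte-like, microglia-like and astrocyte-like nuclei far more members were higher in the Syn-Cre library than lower, and most of these were below 0.25 of their level in another class. In oligodendrocyte-like nuclei 41 of 54 members tested were higher by 1.5-fold or more and 3 lower, where 24.6% of all genes tested were higher and 7.37% lower. The median log2 ratio was 1.89 for the members and 0.15 for all genes. Of the 41, 32 were below 0.25 of their level in their highest class. The libraries filled different clusters of this class: 1951 Syn-Cre nuclei lay in 1 cluster that held 50 vehicle nuclei. Within that cluster, 20 of 41 members tested were higher and 4 lower, where 24.4% of all genes were higher and 18.4% lower, and the median was 0.46. Syt1 was at 605 and 447 CPM there. Kcnip4 was at 365 against 68.9 CPM and Kcnd2 at 146 against 39.8 CPM. Their levels in granule-like nuclei of the Syn-Cre library were 7123 and 2097 CPM. In microglia-like nuclei 13 of 19 members were higher and 2 lower (15.7% and 12.1% of all genes), with a median of 1.00. That median turned to -0.28 over the 8 members with at least 200 UMIs, and was 0.25 with nuclei thinned and 2.85 with free RNA subtracted. The last value is uncertain. The free RNA estimate there was 8.86% in the Syn-Cre and 13.6% in the vehicle library, the reverse of the order in the other compared classes. The summed level of the neuronal genes Syt1, Snap25, Rbfox3 and Meg3 was 3957 against 304 CPM in microglia-like nuclei. In astrocyte-like nuclei 16 of 34 were higher and 3 lower (14.1% and 6.27%), with a median of 0.19. In OPC-like nuclei 5 of 36 were higher and 4 lower (11.6% and 6.89%), and in fibroblast-like nuclei 5 of 14 were higher and 0 lower (11.8% and 13.6%). Syt1, a gene of synaptic vesicles, was higher in the Syn-Cre library in each of these classes. It was at 591 against 54.2 CPM in oligodendrocyte-like, 724 against 82.5 CPM in microglia-like and 476 against 56.8 CPM in astrocyte-like nuclei. In OPC-like nuclei it was at 474 against 57.4 CPM, and in fibroblast-like nuclei at 698 against 41.7 CPM. The part of neuronal RNA in the counts was not tested. With an estimate of free RNA subtracted, the median of the members was -0.24 in astrocyte-like and -0.24 in OPC-like nuclei.

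**Figure D5:**
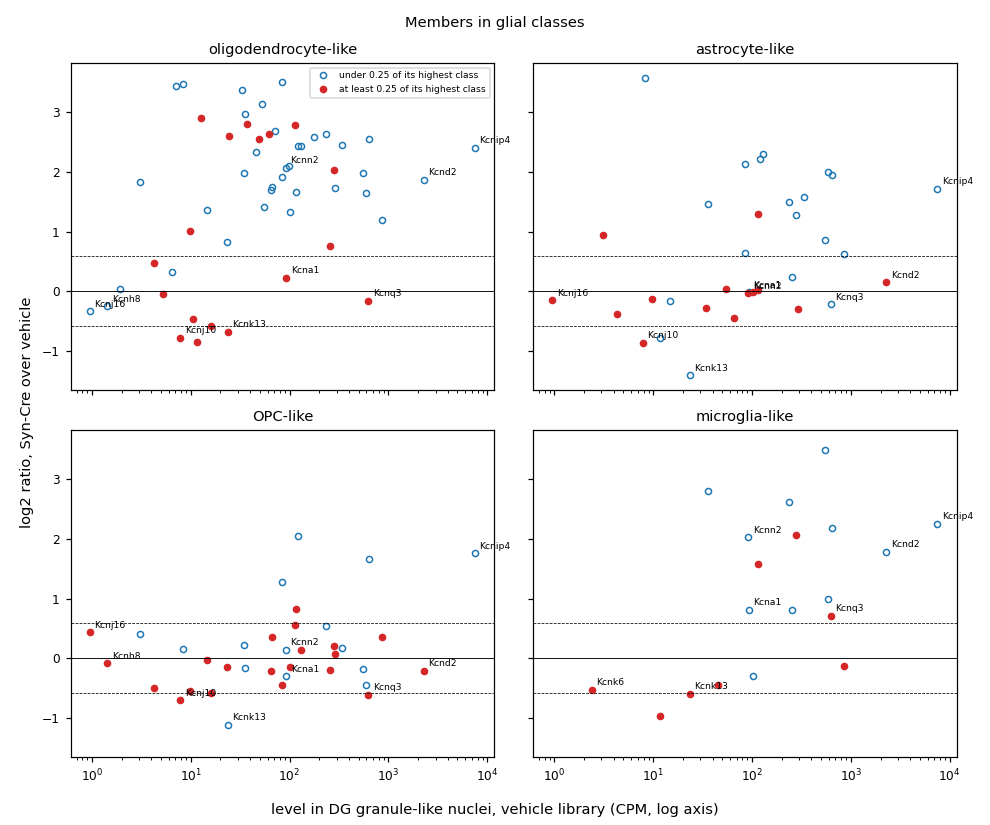
Log2 ratio of each member tested, Syn-Cre over vehicle (y axis), against its level in granule-like nuclei of the vehicle library (x axis, CPM, log axis), in 4 glial classes; open blue points are members under 0.25 of the level in their highest class, filled red points those at or above it, and dashed lines mark 1.5-fold. In oligodendrocyte-like nuclei most points, 41 of 54, lie over the upper dashed line, while Kcna1 and Kcnq3 lie near 0.

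Members whose own level in glia was high showed a different picture. Kcnj10 was lower in the Syn-Cre library in each of the 3 classes that hold it, with a log2 ratio of -0.86 (-1.24 to -0.51) in astrocyte-like, -0.78 (-0.95 to -0.61) in oligodendrocyte-like and -0.70 (-1.22 to -0.23) in OPC-like nuclei. Over the alternatives run, the ratio stayed below 0 in all 3 classes, from -1.02 to -0.49. Its partner Kcnj16 did not follow: its ratio was -0.15 (-0.54 to 0.23) in astrocyte-like and 0.44 (0.039 to 0.82) in OPC-like nuclei. Within the 1 oligodendrocyte-like cluster that held most Syn-Cre oligodendrocytes (1951 and 50 nuclei), Kcnj10 was at 69.9 CPM (62.0 to 78.6) in the Syn-Cre and 56.9 CPM (22.9 to 117, 7 UMIs) in the vehicle library, so that no difference was detectable there. Astrocyte-like and OPC-like nuclei formed 1 cluster each. Kcnj10 was also lower in granule-like nuclei of the Syn-Cre library, as given above. Oligodendrocyte-like nuclei were 17.0% of the Syn-Cre and 63.3% of the vehicle library. The part of oligodendrocyte RNA in the Kcnj10 ratios of other classes was not tested.

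Kcnk13 was lower in oligodendrocyte-like nuclei, with a log2 ratio of -0.68 (-0.81 to -0.55), and in microglia-like nuclei, with -0.59 (-1.01 to -0.21). Within the oligodendrocyte-like cluster named above it was at 116 CPM (106 to 127) against 211 CPM (138 to 309). In microglia-like nuclei it passed 1.5-fold in 3 of 8 alternatives, from -0.91 to -0.44. The part of oligodendrocyte RNA in the microglia-like difference was not tested. Kcnrg was lower in both classes too (14.6 against 26.4 and 45.6 against 90.4 CPM), with the overlap given above. For several glial members the difference lay within counting error: the log2 ratio was -0.03 (-0.13 to 0.062) for Kcnn2 in astrocyte-like, -0.08 (-0.26 to 0.089) for Kcnh8 in OPC-like and -0.06 (-0.39 to 0.26) for Kcnk2 in fibroblast-like nuclei. Kcna1 in oligodendrocyte-like nuclei (0.22, 0.15 to 0.29) and Kcnq3 there (-0.16, -0.22 to -0.099) differed by less than 1.5-fold. Kcnt1 in astrocyte-like nuclei was higher in the Syn-Cre library, at 134 against 69.4 CPM (0.95, 0.65 to 1.25). So was Kcnk1 in OPC-like nuclei, at 77.6 against 43.7 CPM (0.83, 0.40 to 1.25). Kcnab1, a Kv1 beta subunit, was higher in oligodendrocyte-like nuclei, at 434 against 255 CPM (0.77, 0.69 to 0.84), and TMM scaling brought it below 1.5-fold (0.52).

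Cajal-Retzius-like nuclei, the early-born neurons of the hippocampal fissure, had 7 of 27 members higher by 1.5-fold or more in the Syn-Cre library and 8 lower, where 15.5% of all genes tested were higher and 15.4% lower. The median was -0.16. With free RNA subtracted 4 were higher and 16 lower, and the median was -0.89 with nuclei thinned and -0.94 at 200 UMIs. The shares of all genes above are without subtraction, as are the ratios that follow. The lower ones were led by Kcnb2, at 832 against 3623 CPM (log2 ratio -2.12), Kcnc2, at 187 against 771 CPM (-2.04), Kcnq5, at 478 against 1734 CPM (-1.86), and Kcnh7, at 1047 against 3151 CPM (-1.59). The higher ones included Kcnj6, at 317 against 97.0 CPM (1.70), and Kcnip2, at 142 against 55.6 CPM (1.34). This class joined 2 clusters in unequal parts. The cluster led by Reln held 67 Syn-Cre and 162 vehicle nuclei, and that led by Ebf2 and Ebf3 held 110 and 24. In the second cluster of the Syn-Cre library Kcnb2 was at 262 CPM and Kcnh7 at 463 CPM. Within the Reln-led cluster alone, the ratios were -0.66 (-0.80 to -0.53) for Kcnb2, -0.67 (-0.98 to -0.38) for Kcnc2, -0.49 (-0.68 to -0.31) for Kcnq5 and -0.32 (-0.45 to -0.18) for Kcnh7. There 2 of 17 members tested were higher by 1.5-fold or more and 5 lower, as were 296 and 334 of all 2921 genes.

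Genes outside the symbol rule that work with these channels were read from lists of 29 partners and 11 potassium pumps and transporters. In granule-like nuclei 2 of 25 partners tested were at least 1.5-fold higher and 1 lower, and 1 of 9 pumps and transporters higher and 3 lower. Over all genes tested there, 9.21% were higher and 5.77% lower. In oligodendrocyte-like nuclei 14 of 24 partners were higher and 1 lower, and 4 of 10 pumps and transporters were higher and 4 lower, where 24.6% of all genes were higher and 7.37% lower. The part of the neuronal RNA given above in these counts was not tested. Dpp10, which joins Kv4 channels, was at 8417 CPM in deep-layer excitatory-like and 101 CPM in granule-like nuclei of the Syn-Cre library, where its relative Dpp6 was at 440 and 1217 CPM. Cntnap2, which holds Kv1 channels beside the node, was at 3952 CPM in Adarb2 interneuron-like and 208 CPM in granule-like nuclei. Slc12a5, the chloride and potassium exporter of neurons, gave 121 and 106 CPM in granule-like nuclei.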

How the data were processed

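Nuclei were profiled with the 10x Genomics 3' V3 kit after sorting on propidium iodide, per the labels' protocols. The authors deposited raw UMI counts per gene and barcode, in matrices that name Cell Ranger 9.0.1 in the file headers. The submitters' processing notes also list Seurat 4.1.0, bcl2fastq 5.0.1 and the build GRCm39; the sources used here do not say whether intronic reads were counted.

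Nuclei were kept with at least 500 genes, 800 UMIs and under 5% mitochondrial UMIs. Scrublet removed 1070 Syn-Cre doublets (7.97%); its automatic threshold marked 0.016% of the vehicle library, where the top scores at the expected rate were taken (1332, 10.6%). With scanpy 1.11.5, 2000 variable genes without any Kcn gene gave 30 components, 15 neighbours and, with leidenalg 0.10.2 at resolution 1, 35 clusters over both libraries, of which 6 stayed unnamed. Clusters took the class with the highest mean marker fold. Levels are given for classes of at least 50 nuclei, and libraries compared in classes of at least 100 nuclei in each. UMIs were summed per class and library and scaled to CPM, with exact Poisson intervals; ratios have exact conditional binomial intervals (95%). A gene was tested with at least 50 UMIs over both libraries in the class. edgeR 4.0.16 gave TMM factors only.

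Genes were named by a fixed rule: the 3 members highest in a class, the 20 most restricted to a class at 3-fold or more, those past 1.5-fold between libraries at 0.25 or more of their highest class, the members at the UMI minimum, and a list of well-known channels; Kcna4, Kcna6, Kcnh1, Kcnip3, Kcnk10, Kcnk12, Kcnq1, Kcns3 and Abcc9 lie outside it and were chosen after their values were seen. Members and lists were chosen with earlier results of these data known. Ratio code was tested on simulated data. All 78 members matched a RefSeq symbol. Some members and partners are not reported here by name.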

Additional observations from a re-analysis of the deposited data

Results flagged for a closer look

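Kcnq3, a Kv7 channel gene, differed between glial classes in the direction of its difference between the libraries. Its log2 ratio, Syn-Cre over vehicle, was -0.61 (-0.81 to -0.42) in OPC-like nuclei, at 261 against 399 CPM, and 0.72 (0.35 to 1.06) in microglia-like nuclei, with 92 UMIs, against 122 CPM and 262 UMIs. The difference between the classes was not tested. In microglia-like nuclei Syt1 was at 724 against 82.5 CPM, and in OPC-like nuclei at 474 against 57.4 CPM; its part was not tested. Over 8 alternatives the OPC-like ratio ranged from -0.90 to -0.49. The microglia-like ratio ranged from 0.050 with doublets kept to 1.69 with free RNA subtracted, with the limit on that estimate given above.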

How the results depend on the processing

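No paired analysis was possible because each group has 1 library. The alternatives were a looser and a stricter filter, doublets kept, Kcn genes allowed among the variable genes, resolution 0.5, TMM scaling, nuclei thinned to 1000 UMIs, free RNA subtracted and a minimum of 200 UMIs per gene. Among the summary values under an alternative, 153 stayed within 1.5 times the reported count, or within the interval of the reported median, and 48 did not. Members with the same highest class numbered 36 of 45 to 47 of 63. Medians and counts below are given for the members, after the class. The shares of all genes past 1.5-fold under these settings are not given here, so the counts cannot be set against them.

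With free RNA subtracted the median log2 ratio was -0.19 in granule-like, 2.85 in microglia-like, -0.24 in OPC-like and -0.24 in astrocyte-like nuclei. The microglia-like value has the limit on that estimate given above. Counts higher were 4 in Cajal-Retzius-like and 2 in granule-like, and counts lower 16 in Cajal-Retzius-like, 12 in granule-like, 10 in OPC-like, 12 in astrocyte-like, 1 in microglia-like and 5 in fibroblast-like nuclei. With nuclei thinned the median was -0.89 in Cajal-Retzius-like and -0.063 in granule-like nuclei; counts higher were 3 in Cajal-Retzius-like, 5 in granule-like, 3 in OPC-like, 6 in astrocyte-like, 1 in fibroblast-like and 5 in microglia-like, and counts lower 2 in granule-like, 4 in microglia-like and 1 in OPC-like nuclei. With at least 200 UMIs the median in Cajal-Retzius-like nuclei was -0.94; counts higher were 4 in Cajal-Retzius-like, 4 in granule-like, 1 in OPC-like, 4 in astrocyte-like, 1 in fibroblast-like, 3 in microglia-like and 22 in oligodendrocyte-like, and counts lower 2 in granule-like, 2 in OPC-like and 1 in astrocyte-like nuclei. Here fewer genes were tested by construction.

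With doublets kept the granule-like median was -0.076; counts higher were 4 in granule-like and 8 in OPC-like, and counts lower 2 in granule-like, 5 in astrocyte-like and 2 in fibroblast-like nuclei. TMM scaling gave 4 lower in microglia-like and 5 in oligodendrocyte-like nuclei, the looser filter 5 lower in oligodendrocyte-like and the stricter filter 1 lower in microglia-like nuclei. The Reln-led cluster alone, chosen after seeing the data, gave 2 higher and 5 lower. The oligodendrocyte-like cluster with most Syn-Cre nuclei alone, also chosen after seeing the data, gave a median of 0.46 and 20 higher. Each cluster had under 100 nuclei in 1 library, so neither met the minimum for a comparison. The cause of the other changes was not tested.

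In granule-like nuclei, Kcnh4 was at 0.046 with doublets kept, Kcns1 at -2.76, and Kcnj2 at 0.65, and Kcnj2 at 1.00 with nuclei thinned. Depth limits the members under about 50 UMIs in a class, and neurons other than granule-like and Cajal-Retzius-like could not be compared.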

Other observations

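Some classes had enough nuclei in the vehicle library only. In its 53 newly formed oligodendrocyte-like nuclei, the stage between precursor and myelinating cell, Kcnj3 was at 383 CPM (317 to 459, 118 UMIs), against 127 CPM in OPC-like and 12.9 CPM in oligodendrocyte-like nuclei. Kcnq5 was at 438 CPM (367 to 519), against 288 and 9.64 CPM. Kcnh8 was at 29.2 CPM there, against 370 CPM in OPC-like nuclei.

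In 84 neuroblast-like nuclei, the immature neurons, Kcnb2 was at 956 CPM (842 to 1080) and Kcnh7 at 654 CPM (561 to 758), while Kcnip4 was at 175 CPM against 7531 CPM in granule-like nuclei. Perivascular macrophage-like nuclei (80) had Kcnk13 at 254 CPM (197 to 323). They also had Kcnq3 at 342 CPM and Kcna1 at 194 CPM, genes that were high in oligodendrocyte-like nuclei, and the part of oligodendrocyte RNA in this was not tested. In 93 endothelial-like nuclei Kcnq1 gave 9 UMIs, 52.9 CPM (24.2 to 100.4), against 2.22 CPM in OPC-like nuclei.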
